A study of Mus musculus with 8 samples.

Results

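The autophagy genes of NIH3T3 cells were compared between cells sorted as G0 and cells sorted as G1. They were taken as the rows of the array table whose only gene symbol begins with Atg and a digit, or with Gabarap, Map1lc3, Ulk or Wipi, or stands in a list of further autophagy genes such as Becn1, Sqstm1 and Rb1cc1. The rule found 100 of 45037 probe sets, which stand for 43 of 18193 genes. A probe set is a group of short probes that together read a transcript. There were 33 genes with more than 1 probe set, and Wipi1 had the most with 6. Optn, the 1 listed gene that no row matched by a single symbol, was not analysed here.

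NIH3T3 is an established mouse embryonic fibroblast line. All cells of both groups carried the reporters mVenus-p27K- and mCherry-hCdt1(30/120), had been cultured without serum, and were then given medium with 10% serum for 5 h. Cells positive for both reporters were sorted as G0, and cells negative for mVenus but positive for mCherry as G1, with 4 arrays for each. Nothing in the labels says that the arrays of a group came from separate cultures or clones, so p-values measure the spread between these arrays, which may be technical.

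Autophagy encloses cytoplasm in a double membrane, the autophagosome, which fuses with the lysosome for degradation. The ULK kinase complex starts the process when nutrients or growth factors are short, and mTORC1 holds that complex off when they are plentiful. A class III PI3-kinase complex then marks the forming membrane with the lipid PI3P, effector proteins read the mark and bring in lipid, and a ubiquitin-like conjugation system fixes ATG8 proteins (LC3 and GABARAP) to the membrane. Cargo receptors bind both ATG8 proteins and the material to be degraded. In fibroblasts, removal of serum is a common way to induce autophagy, which is controlled largely at the protein level and in part through transcription.

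Each value is the log2 signal of a probe set minus the middle of its own 8 values. A value of 0 is thus the middle of the arrays and not absence, and no level can be compared between genes. Negative differences mean lower in G1. Array medians over all probe sets lay between −0.07 and 0.09. The poly-A spike-in controls were missing on G0 replicate 3 (median −7.12) and G1 replicate 4 (−6.40), against −0.14 to 0.62 on the other 6 arrays. The labels instead place replicate 4 of each group in a second labelling batch, made by revision 3 of the kit protocol where the others used revision 8. They also give that batch a different RNA input. The main test had the labelled batch as covariate, and a second test had the batch shown by the spike-ins. Both batches hold 1 array of each group, so the differences are the same and only their errors change. Of 5 proliferation markers 4 passed as higher in G1, among them Mki67 (log2 difference 3.82, standard error (SE) 0.25, limma adjusted p = 0.0089, n = 4 per group). No marker passed among 6 of fibroblasts, 5 of leukocytes, 4 of epithelium and 4 of endothelium. At an unadjusted p under 0.05, the endothelial Pecam1 was higher in G1 in both fits (log2 difference 1.16), and the fibroblast marker Col1a1 lower in the spike-in fit (−0.86). Of the 6 fibroblast markers 5 had a negative difference, where 55.3% of all genes did. Their lowest difference was −1.69 and their median −0.12. The mean over the fibroblast markers lay between −0.25 and 0.55 on the G0 arrays, and between −0.72 and 0.38 on the G1 arrays. Centring removed absolute levels, so neither the fibroblast identity nor the absence of other cells could be read from markers.

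No autophagy probe set passed the test, but most lay lower in G1 than in G0. Of the 43 genes, each shown by 1 probe set chosen without regard to its values, 36 had a negative difference and 7 a positive one. Of the 100 probe sets 84 were negative, where 55% of all were. The median log2 difference was −0.32, where that of all genes was −0.06 and 55.3% of all genes had a negative difference. In limma 0 of 100 probe sets passed at an adjusted p under 0.05, against 0.4% of all probe sets (0.373% higher and 0.0266% lower in G1), and the smallest adjusted p of a member was 0.376. At an unadjusted p under 0.05, 6 probe sets were lower, against 3.59% of all, and 1 was higher, against 3.71%. In the fit that used the spike-in batch 0 passed (limma, smallest adjusted p = 0.111), where 0.702% of all were higher and 0.0866% lower. That fit put 15 of the 100 lower at an unadjusted p under 0.05, against 6.11% of all, and 1 higher, against 5.15%. Counted as genes, 2 of 43 were lower at that unadjusted p in the main fit, Vmp1 and Atg2a, and 0 higher, where 3.74% and 4.33% of all genes were. In the spike-in fit 8 of 43 (18.6%) were lower, Gabarap, Gabarapl1, Map1lc3b, Nbr1, Vmp1, Atg9a, Atg2a and Zfyve1, and 0 higher, where 6.37% and 6.04% of all genes were. In bulk RNA, a lower level in all cells and a lower level in part of them cannot be told apart.

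Separation of the groups is another reading of the same values, not a second line of support, and had the same direction. In 8 of the 100 probe sets every G1 array lay below every G0 array, against 2.9% of all probe sets. In 0 of the 100 did every G1 array lie above every G0 array, against 3.16% of all. The 8 belonged to 5 genes: Wipi1 with 3, Map1lc3b with 2, and Vmp1, Zfyve1 and Atg2a with 1 each. Probe sets of 1 gene were read on the same samples and can share transcripts, so they are not independent. Counted as genes, 3 of 43 (6.98%) were separated as lower, Vmp1, Wipi1 and Atg2a, and 0 as higher, where 3.28% and 3.79% of all genes were. On the 6 arrays with spike-ins, chosen after seeing the data, 19 of the 100 were lower without overlap, against 8.65% of all, and 1 was higher, against 6.69%. On those 6 arrays 35 of the 43 genes had a negative difference. The median over the 43 genes was 0.13, 0.03, 0.42 and 0.04 on G0 replicates 1 to 4 and −0.14, −0.29, −0.05 and 0.02 on G1 replicates 1 to 4. Every G0 array was above every G1 array by this measure, though the G0 replicate 2 and G1 replicate 4 medians nearly met.

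**Figure D1:**
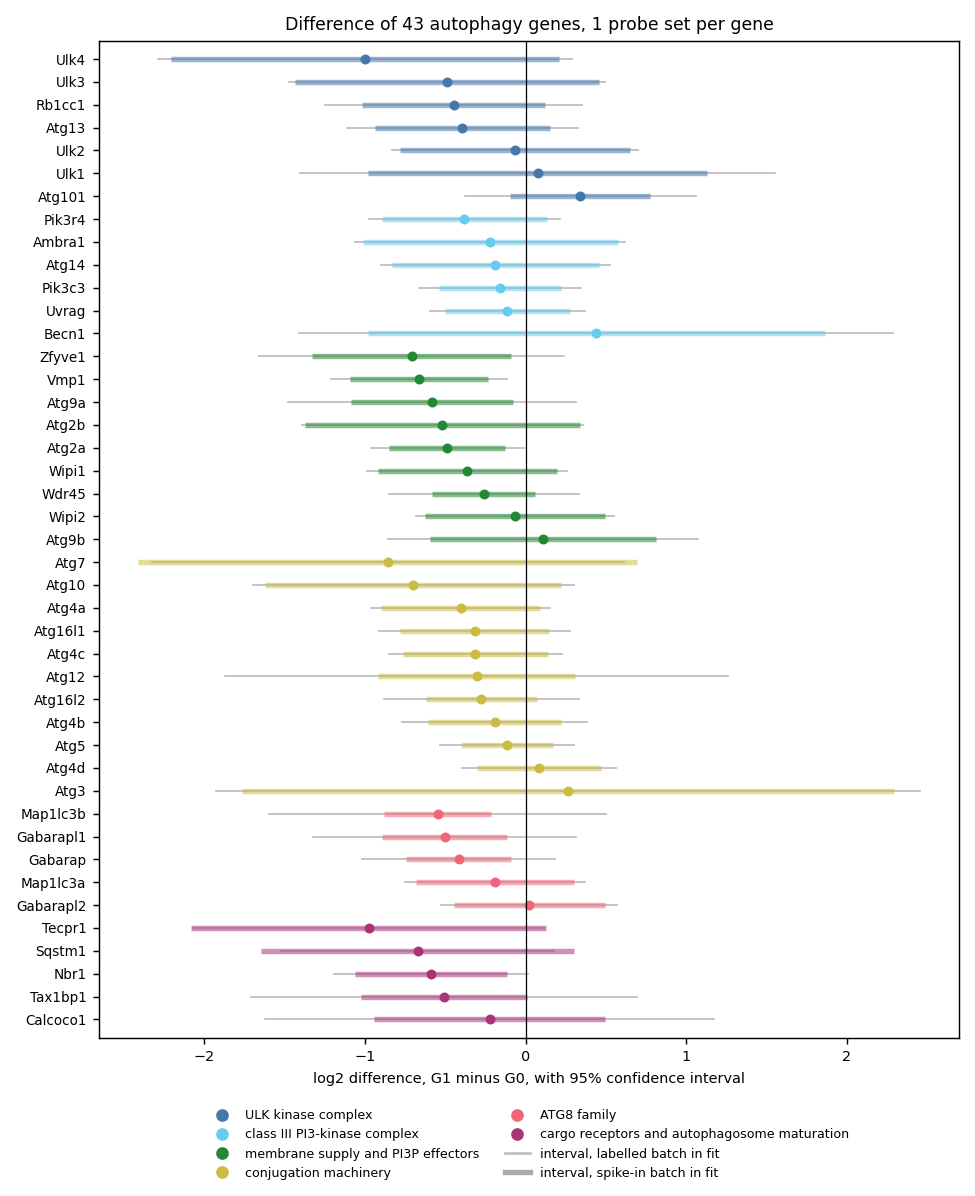
Log2 difference, G1 minus G0, of 43 autophagy genes by role (points), each from 1 probe set, with the 95% confidence interval of the limma fits, drawn thin and grey for the labelled batch and thick and coloured for that of the spike-ins. Of the 43 points 36 lie left of 0, and the spike-in batch interval lies wholly below 0 for 8 genes and wholly above 0 for 0.

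The membrane supply proteins and readers of PI3P held 22 of the 100 probe sets and 6 of the 8 separated ones, 3 of them of Wipi1, where 2.9% of all probe sets were separated as lower. Of 9 genes in the group, 8 had a negative difference and 0 passed, with a median of −0.49. Wipi1, which binds PI3P on the forming autophagosome, is described here after its values were seen. Its probe set 1439060_s_at read 0.69, 0.28, 0.26 and 0.24 on G0 replicates 1 to 4 and −0.26, −0.24, −0.41 and −0.63 on G1 replicates 1 to 4. The groups did not overlap, and the level was 1.68-fold higher in G0 (log2 difference −0.75, SE 0.20, limma adjusted p = 0.376). This was the smallest adjusted p among the 100 probe sets. Probe set 1456624_at of Wipi1 read 0.53, 0.10, 0.50 and 0.16 in G0 and −0.62, −0.63, −0.23 and −0.10 in G1. Here too all G0 arrays were above all G1 arrays (difference −0.72, SE 0.24, adjusted p = 0.550). The third separated probe set, 1438709_at, differed by −0.36 (SE 0.27), with G1 replicate 2 at −0.83 and the other G1 arrays between −0.17 and −0.02. The other 3 probe sets of Wipi1 differed by −0.81, −0.10 and 0.15, so the gene's size of difference depends on the probe set.

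Vmp1, a lipid scramblase of the endoplasmic reticulum needed for autophagosome formation, had the smallest p among the shown probe sets. Its values were 0.22, 0.12, 0.13 and 0.38 in G0 and −0.53, −0.54, −0.12 and −0.62 in G1. The lowest G0 and the highest G1 array were 0.12 and −0.12, so the groups were separated (1.58-fold higher in G0, difference −0.66, SE 0.23, adjusted p = 0.592). The difference was −0.55 in labelling batch 1 and −1.002 in batch 2, and −0.63 with and −0.75 without spike-ins. The second Vmp1 probe set differed by −0.29 (SE 0.40), with the 2 arrays without spike-ins highest.

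Zfyve1 encodes DFCP1, a PI3P-binding protein that marks the omegasome, the platform from which autophagosomes grow. Its probe set of smaller p, 1435072_at, read 0.92, 0.02, 1.40 and 0.55 in G0 and −0.22, −0.16, −0.37 and −0.02 in G1. The G0 values spread over more than a log2 unit, yet all exceeded those of G1 (1.89-fold higher in G0, difference −0.92, SE 0.34, adjusted p = 0.619). Zfyve1 probe set 1435071_at overlapped between groups, with a difference of −0.71 (SE 0.41). It was −0.42 without G1 replicate 3, −0.46 without G0 replicate 3 and −1.10 in labelling batch 1, which holds no replicate 4. In labelled batch 2, with 1 array of each group, it turned to 0.47. Over the arrays with spike-ins it was −0.72, and between those without −0.66. Atg2a, which transfers lipid into the growing membrane, read 0.20, 0.41, 0.04 and 0.28 in G0 and −0.38, −0.33, −0.04 and −0.29 in G1. The groups were separated, with the narrowest gap between G0 replicate 3 and G1 replicate 3 (1.40-fold higher in G0, difference −0.49, SE 0.20, adjusted p = 0.677). Atg9a, the membrane protein of the vesicles that seed the autophagosome, differed by −0.58 (SE 0.38). Its relative Atg9b differed by 0.11 on the shown probe set and by −0.89 (SE 0.59) on the other. The Atg2a relative Atg2b differed by −0.52, and on its other probe sets by −0.13 and 0.08. Wipi2, which recruits the conjugation machinery, differed by −0.07 (95% confidence interval −0.68 to 0.55), and Wdr45, a further WIPI family protein, by −0.26.

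In the ATG8 family Map1lc3b, Gabarap and Gabarapl1 lay lower in G1 on most arrays, while Map1lc3a and Gabarapl2 stood nearer 0. Of the 5 genes 4 had a negative difference, with a median of −0.42, and 0 passed. Map1lc3b encodes LC3B, the protein most used as an autophagosome marker. Its probe set 1415928_a_at read 0.38, 0.16, 0.71 and 0.27 in G0 and −0.36, −0.43, −0.25 and −0.16 in G1. The groups were separated, with a 1.60-fold higher level in G0 (difference −0.68, SE 0.21, adjusted p = 0.470). In the spike-in fit this was the lowest adjusted p of any member (limma, adjusted p = 0.111, SE 0.13). The shown probe set, 1415929_at, read 0.13, 0.03, 1.49 and −0.03 in G0 and −0.52, −0.53, −0.25 and 0.72 in G1. G0 replicate 3 and G1 replicate 4, the arrays without spike-ins, were the highest of their groups, so the groups overlapped (difference −0.55, SE 0.45). Without G0 replicate 3 it was −0.14, and in labelling batch 1, which holds no replicate 4, it was −0.98. Among the 6 arrays with spike-ins all G0 values were above all G1 values, by −0.47 on average as G1 minus G0, and between the other two arrays the difference was −0.78. Probe set 1415930_a_at differed by −0.32 without overlap and 1428024_at by −0.30 with wide overlap (SE 1.19).

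Gabarap and Gabarapl1, ATG8 proteins that act in autophagosome closure and cargo binding, had a like pattern. Gabarap read 0.05, 0.09, 0.51 and −0.05 in G0 and −0.40, −0.46, −0.44 and 0.23 in G1. G1 replicate 4 alone overlapped with G0 (difference −0.42, SE 0.26, adjusted p = 0.820). Gabarapl1 read 0.32, 0.21, 1.05 and −0.21 in G0 and −0.32, −0.27, −0.52 and 0.46 in G1. It differed by −0.50 (SE 0.35, adjusted p = 0.845), and its second probe set by −0.47. Without G0 replicate 3 the differences of Gabarap and Gabarapl1 were −0.27 and −0.25. In labelling batch 1 the differences of Map1lc3b, Gabarap and Gabarapl1 were −0.98, −0.65 and −0.90, and in batch 2 they were 0.75, 0.28 and 0.68. Labelled batch 2 sets G1 replicate 4, without spike-ins, against G0 replicate 4, with them. In the spike-in fit the 95% confidence intervals were −0.88 to −0.22, −0.74 to −0.09 and −0.89 to −0.11 (limma adjusted p = 0.211, 0.332 and 0.325). Map1lc3a, which encodes LC3A, read −0.37, 0.24, 0.11 and 0.20 in G0 and −0.42, −0.02, 0.02 and −0.15 in G1. These overlap, with a difference of −0.19 (interval −0.75 to 0.37 with the labelled batch). Gabarapl2, known as GATE-16, read −0.43, 0.17, −0.01 and 0.01 in G0 and −0.28, 0.13, 0.09 and −0.11 in G1. The groups covered nearly the same range (difference 0.02, interval −0.53 to 0.57, adjusted p = 0.995), although its second probe set differed by −0.24. Whether the 5 genes differ from each other in their response was not tested.

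**Figure D2:**
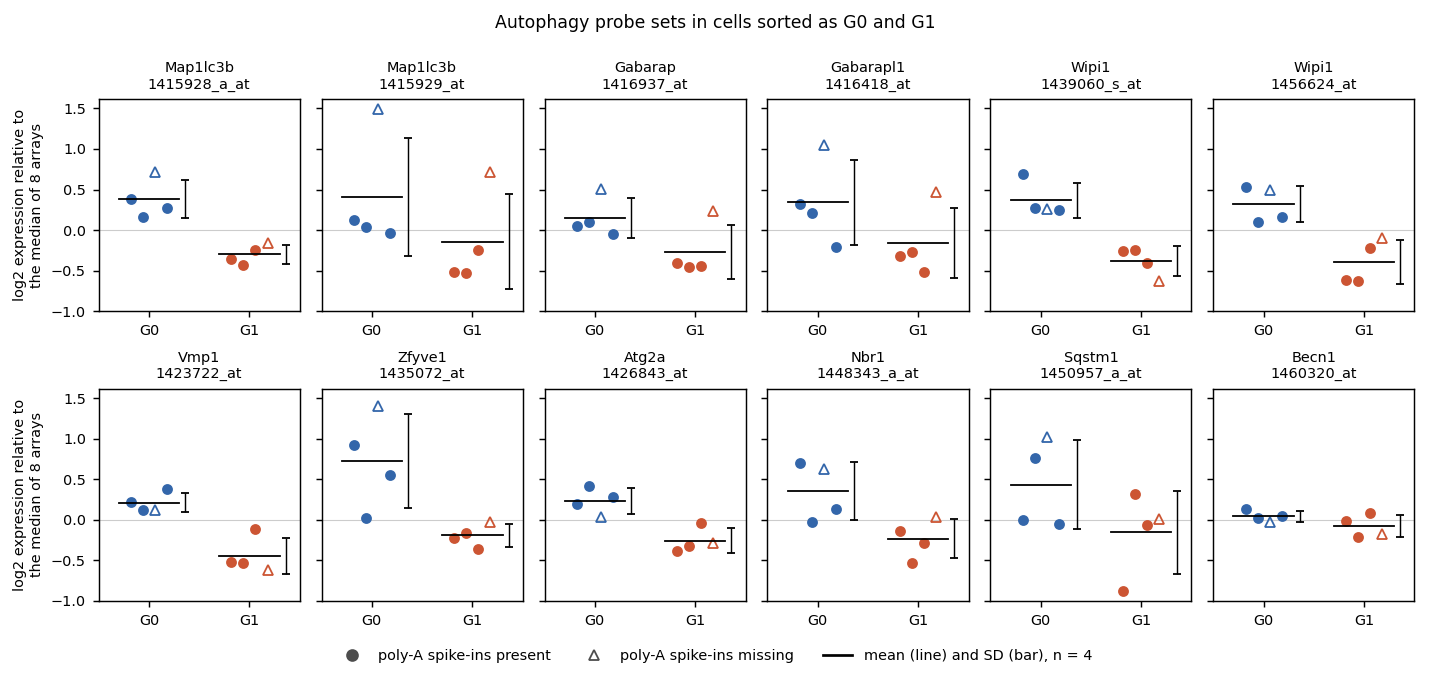
Log2 expression relative to the median of 8 arrays (vertical axis) for 12 autophagy probe sets in the 4 G0 and 4 G1 arrays, with replicates 1 to 4 from left to right, the mean as a line and the SD as a bar. The first Map1lc3b panel, both Wipi1 panels and those of Vmp1 and Zfyve1 show the probe sets of smallest p within their gene, so the panels are not a neutral sample. Open triangles are the arrays without poly-A spike-ins; they lie highest in both groups for Map1lc3b 1415929_at, Gabarap and Gabarapl1, and not for Wipi1 1439060_s_at, Vmp1 or Atg2a.

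The regions around the transcription starts of Map1lc3b and Wipi1, the genes with more than 1 separated probe set, are shown beside those of Atg3 and Atg5. The latter hold the motif marked below, as do Atg7 and Atg14, whose regions are not shown. Probe sets of Atg3 and Atg5 differed by −0.37 to 0.27, and those of Atg7 and Atg14 by −0.86 to 0.72. The regions come from RefSeq on mouse build GRCm38.p6. Each runs from 250 bases before to 50 bases after the annotated start, in the direction of transcription. Capitals mark the E-box CACGTG, the core of the site bound by TFEB and its relatives, which are known regulators of autophagy and lysosome genes.
Map1lc3b, chr8:121590188-121590487, plus strand: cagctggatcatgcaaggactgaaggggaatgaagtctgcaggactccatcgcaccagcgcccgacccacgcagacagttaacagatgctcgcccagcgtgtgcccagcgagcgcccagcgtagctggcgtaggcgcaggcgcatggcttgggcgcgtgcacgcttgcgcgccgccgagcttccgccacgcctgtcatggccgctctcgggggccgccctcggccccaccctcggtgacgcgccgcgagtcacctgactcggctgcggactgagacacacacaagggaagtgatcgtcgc
Wipi1, chr11:109611340-109611639, minus strand: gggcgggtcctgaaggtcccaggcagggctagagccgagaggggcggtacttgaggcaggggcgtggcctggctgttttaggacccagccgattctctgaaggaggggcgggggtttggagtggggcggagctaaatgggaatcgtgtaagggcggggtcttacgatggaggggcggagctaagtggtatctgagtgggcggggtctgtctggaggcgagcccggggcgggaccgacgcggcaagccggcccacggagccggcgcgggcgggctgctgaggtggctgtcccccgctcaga
Atg3, chr16:45158579-45158878, plus strand: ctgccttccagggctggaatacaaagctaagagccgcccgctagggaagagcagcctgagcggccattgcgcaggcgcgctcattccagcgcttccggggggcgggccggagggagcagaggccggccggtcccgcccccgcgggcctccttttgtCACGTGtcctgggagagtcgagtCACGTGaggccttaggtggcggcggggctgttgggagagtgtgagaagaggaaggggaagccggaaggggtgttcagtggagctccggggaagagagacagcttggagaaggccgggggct
Atg5, chr10:44268089-44268388, plus strand: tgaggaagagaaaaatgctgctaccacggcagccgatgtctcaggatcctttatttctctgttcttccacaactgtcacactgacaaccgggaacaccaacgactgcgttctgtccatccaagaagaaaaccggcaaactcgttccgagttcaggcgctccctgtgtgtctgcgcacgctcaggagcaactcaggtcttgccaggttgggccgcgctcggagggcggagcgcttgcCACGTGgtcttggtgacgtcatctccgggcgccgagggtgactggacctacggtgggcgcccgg
Windows were found for 37 of the 43 genes, 44 in all. CACGTG, which reads the same on both strands, was in 4 of the 44 (9.09%), against 7.15% of 32851 promoter windows. The 4 were those of Atg3 (2 copies), Atg5, Atg7 and Atg14. Their shown probe sets differed by 0.27, −0.12, −0.86 and −0.19, in that order. None of these genes had a separated probe set, and the windows of Map1lc3b and Wipi1 hold no CACGTG. Whether the motif goes with the differences was not tested. The FoxO core GTAAACA, searched on both strands, was in 0 of the 44 and 3.65% of all. A match is only a match of letters in this window.

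Cargo receptors lay lower in G1 on their shown probe sets, without passing. All 5 genes of this group, which includes the maturation factor Tecpr1, had a negative difference there (median −0.59). Sqstm1 encodes p62, the receptor for ubiquitin-tagged cargo that is itself degraded by autophagy. Its probe set 1450957_a_at read −0.01, 0.76, 1.02 and −0.06 in G0 and −0.88, 0.32, −0.07 and 0.01 in G1. The G0 arrays formed a high and a low pair, and the groups overlapped (difference −0.59, SE 0.37, adjusted p = 0.825). The shown probe set of Sqstm1, 1444021_at, read 0.76, 0.48, −0.65 and 0.57 in G0 and −0.33, −0.97, −0.55 and 0.33 in G1. It differed by −0.67 (SE 0.36, adjusted p = 0.779), but by −1.22 over the arrays with spike-ins and by 0.98 between the other two, so that it turned sign. Nbr1, a receptor related to p62, read 0.69, −0.03, 0.63 and 0.14 in G0 and −0.14, −0.54, −0.29 and 0.03 in G1. Only the 0.03 of G1 replicate 4 lay above a G0 value (1.51-fold higher in G0, difference −0.59, SE 0.26, adjusted p = 0.697). Tecpr1, which links autophagosomes to lysosomes, read 1.17, −0.03, 0.66 and 0.03 in G0 and 0.15, −1.63, −0.18 and −0.43 in G1. It differed by −0.98 (SE 0.47, adjusted p = 0.739), by −0.56 without G1 replicate 2, and on its other probe sets by −0.11 and −0.14. Tax1bp1 and Calcoco1, receptors that also bind ATG8 proteins, differed by −0.51 (SE 0.51) and −0.22 (SE 0.60). The other probe sets of Tax1bp1 differed by −0.36, −0.27 and 0.06. Calcoco1 differed by 0.10 over the arrays with spike-ins, and by 0.13 on its other probe set.

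Among the ULK kinases and the subunits of the starting complex, Ulk1 and Ulk2 stood near 0 and Ulk4 lay lowest. Of 7 genes 5 had a negative difference, 0 passed, and the median was −0.39. Ulk1, the main initiating kinase, read −0.13, 0.19, 0.73 and −1.22 in G0 and −1.34, 0.13, −0.13 and 1.21 in G1 on its shown probe set, 1416504_at. This spread exceeds any difference between the groups (0.07, SE 0.63). Its quieter probe set, 1448370_at, read 0.28, −0.08, −0.03 and 0.38 in G0 and −0.01, 0.01, −0.02 and 0.29 in G1. The groups overlapped there too (difference −0.07, interval −0.50 to 0.36, adjusted p = 0.980). Ulk2, the close relative of Ulk1, read 0.69, −0.48, −0.01 and 0.40 in G0 and 0.60, −0.19, 0.01 and −0.09 in G1. It differed by −0.07 (interval −0.83 to 0.70, adjusted p = 0.989), and its other 3 probe sets by −0.51, −0.20 and 0.12. Ulk4, a pseudokinase that enters the rule by its name, read 1.00, −0.09, 0.84 and −0.03 in G0 and −0.34, −2.03, 0.06 and 0.03 in G1. Its difference of −0.9998 (SE 0.55, adjusted p = 0.786) was the lowest among the 43 genes, and was −0.49 without G1 replicate 2. Among the scaffold and regulatory subunits, Rb1cc1 (FIP200) differed by −0.45, Atg13 by −0.39 and Atg101 by 0.34. The other probe sets of Rb1cc1 differed by −0.57 and 0.92. The kinase Ulk3 differed by −0.49, but by 0.46 between the arrays without spike-ins.

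The class III PI3-kinase complex had the median nearest to 0 among the 6 role groups, −0.17, with 5 of 6 genes negative and 0 passed. Becn1, the Beclin 1 scaffold of that complex, read 0.98, −1.74, 1.03 and −1.35 in G0 and 0.12, −0.12, −0.65 and 1.33 in G1 on its shown probe set, 1430358_at. G0 replicates 2 and 4 were the lowest arrays and G1 replicate 4 the highest, and the groups overlapped (difference 0.44, SE 0.79, adjusted p = 0.968). Its tightest probe set, 1460320_at, read 0.13, 0.02, −0.03 and 0.04 in G0 and −0.02, −0.21, 0.08 and −0.18 in G1. The difference there was −0.12 (interval −0.57 to 0.32, adjusted p = 0.959). The remaining Becn1 probe sets differed by −0.51, −0.63 and −0.08, so 4 of the 5 were negative and only the shown one positive. The catalytic subunit gene Pik3c3 (VPS34) differed by −0.16, its regulatory partner Pik3r4 by −0.38, and the complex-specific subunits Atg14 and Uvrag by −0.19 and −0.11. Ambra1, which links Beclin 1 to the ULK kinases, differed by −0.22.

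In the conjugation machinery 9 of 11 genes had a negative difference, 0 passed, and the median was −0.31. Atg7, the activating enzyme for both ATG12 and ATG8, had the largest of them, read as 0.58, 0.35, 0.57 and −0.75 in G0 and 0.59, −2.27, −0.35 and −0.66 in G1. The groups overlapped almost fully apart from the −2.27 of G1 replicate 2 (difference −0.86, SE 0.63, adjusted p = 0.860, and −0.24 without that array). Its other 3 probe sets differed by −0.26, −0.06 and 0.72. Atg4a, a protease that trims ATG8 proteins, read 0.64, −0.06, 0.35 and 0.08 in G0 and 0.06, −0.07, −0.44 and −0.15 in G1. It differed by −0.40 (SE 0.24, adjusted p = 0.807), with G1 replicate 1 above G0 replicate 2. The other proteases Atg4b, Atg4c and Atg4d differed by −0.19, −0.31 and 0.08 on their shown probe sets. The second probe set of Atg4d differed by −1.10 (SE 0.64), the lowest of the 100. Those of Atg4b differed by −0.01 and 0.58, and that of Atg4c by −0.18. Atg10 and Atg3, conjugating enzymes for ATG12 and ATG8, differed by −0.70 (SE 0.43) and 0.27 (SE 0.94), and the quieter probe set of Atg3 by −0.06 (SE 0.19). Atg5 and Atg12, which are joined to each other, differed by −0.12 and −0.31. Atg16l1, which directs that conjugate to the membrane, differed by −0.32 on its shown probe set and by 1.03 on an _x_at probe set, a suffix that marks possible cross-hybridisation. The latter was the 1 member probe set higher at an unadjusted p under 0.05 (limma adjusted p = 0.573). That suffix also stood on probe sets of Becn1 (−0.51 and −0.63), Atg4a (−0.61), Atg12 (−0.14) and Map1lc3a (−0.13), all with negative differences. Atg16l2 differed by −0.28.

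**Figure D3:**
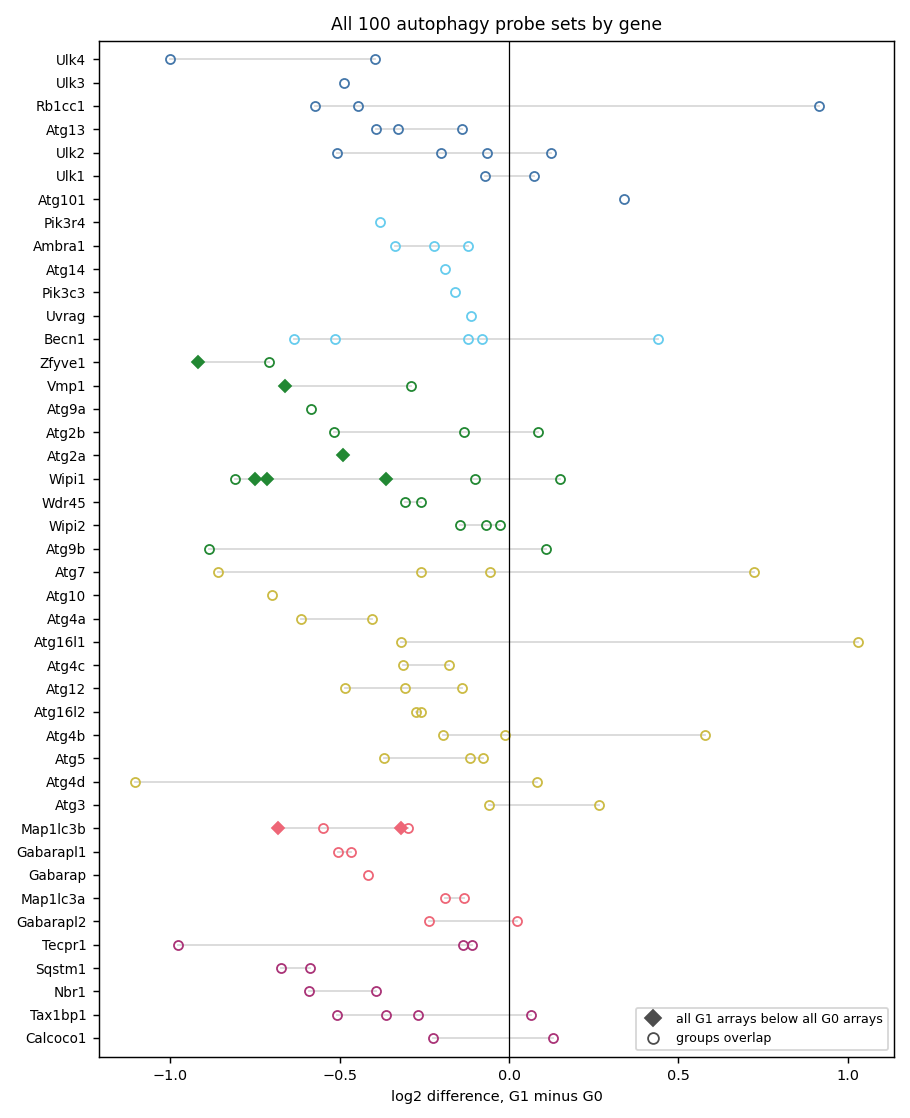
Log2 difference, G1 minus G0 (horizontal axis), of all 100 autophagy probe sets by gene, coloured by role as in the plot of differences with intervals. Filled diamonds mark the 8 probe sets with every G1 array below every G0 array, which lie in Zfyve1, Vmp1, Atg2a, Wipi1 and Map1lc3b.

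Probe sets of the same gene often differed in sign. Of the 33 genes with several, 18 had all of them negative, 15 had both signs and 0 had all of them positive. The intervals show what the arrays could resolve. For 18 of 43 genes the 95% confidence interval lay within a 2-fold change in either direction, and in the spike-in fit for 26. A rise of 2-fold or more in G1 lay outside the interval for 36 genes, and for 40 in the spike-in fit. A 2-fold fall in G1 lay within the interval for 23 genes, and for 15 in the spike-in fit.

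The arrays without spike-ins stood apart for many members. On 26 of the 100 probe sets G0 replicate 3 and G1 replicate 4 were the 2 highest arrays, against 15.9% of all probe sets, and on 5 they were the 2 lowest, against 8.34%. Map1lc3b probe set 1428024_at read 3.26 and 2.43 on these arrays and −0.25 to 0.51 on the others. For Nbr1 probe set 1451897_a_at the values were 2.69 and 2.06, against −0.51 to 0.20. Atg12 probe set 1451746_a_at read 2.36 and 1.20, against −0.28 to 0.04. Each of these 3 probe sets was also higher on the G0 array than on the G1 array of that pair. The part of labelling in these values was not tested. The median difference of the 43 genes was −0.34 over the arrays with spike-ins and −0.36 between those without, where all genes gave −0.07 and −0.02. By the labelled batches it was −0.46 and −0.05, where all genes gave −0.11 and 0.15.

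**Figure D4:**
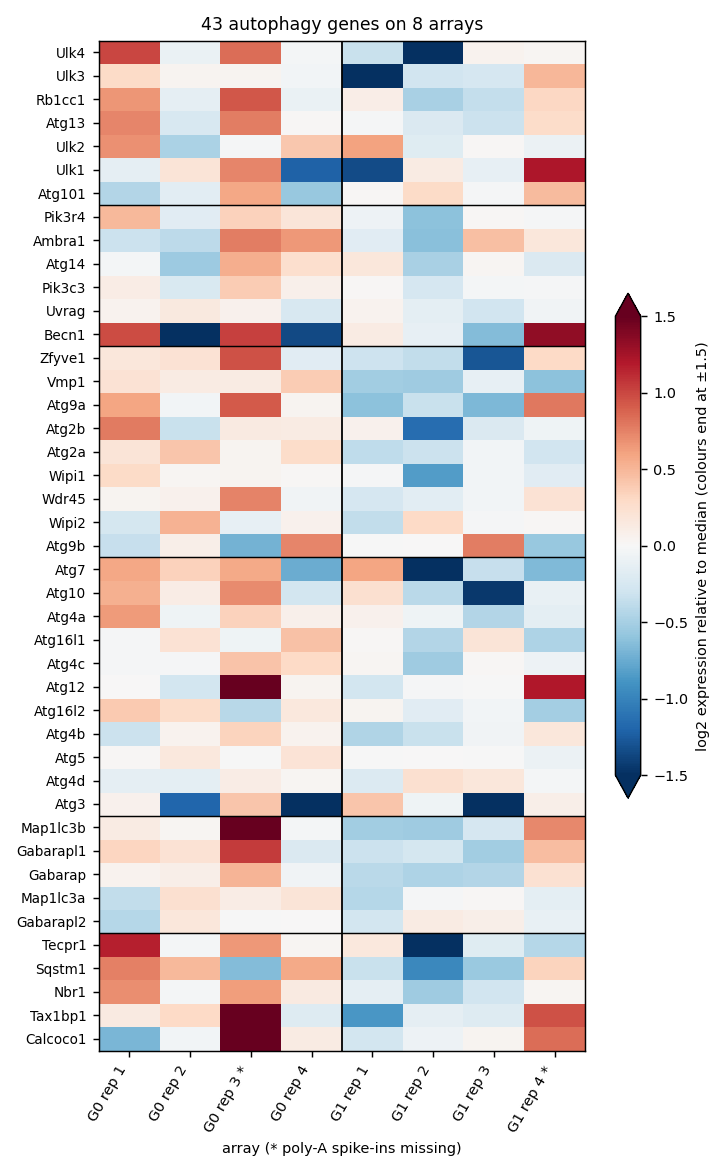
Log2 expression relative to the median of 8 arrays (colour, ending at ±1.5) for 43 autophagy genes in rows, grouped by role, and 8 arrays in columns, with asterisks on the arrays without poly-A spike-ins. G0 replicate 3 has the highest median over the genes, 0.42, and G1 replicate 2 the lowest, −0.29.

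Other genes of the pathway were taken from 7 lists with 100 entries, of which 95 were measured. In limma 0 of the 95 passed in either direction, where 0.5% of all genes passed as higher and 0.022% as lower. At an unadjusted p under 0.05, 9 of them were lower and 0 higher, where 3.74% and 4.33% of all genes were. In the spike-in fit 17 were lower and 1 higher, where 6.37% and 6.04% of all genes were. The median difference was −0.21, with 70 of the 95 negative. In 10 of them all G1 arrays lay below all G0 arrays, against 3.28% of all genes. Among 27 measured genes of mTORC1 and its control, 4 were lower at that p. They were the mTORC1 inhibitors Ddit4 (−1.10, SE 0.26, adjusted p = 0.280) and Sesn3 (−0.86), and Flcn (−0.56) and Rraga (−0.68), which act in the Rag GTPase branch of mTORC1 control. The transcription factors Nfe2l2 (−0.63) and Tfe3 (−0.63), a relative of TFEB, were 2 of 10 in their list, while Tfec differed by 0.93 with an SD of 1.60 in G0. Of 11 mitophagy and organelle receptors, Bnip3 (−0.55), which tethers mitochondria to LC3, and Ncoa4 (−0.50), the receptor for ferritin, were lower at that p, and Calcoco2 had the largest difference (0.88, SE 1.28). The lysosome list of 8 had Atp6v0d1, a subunit of the proton pump (−0.63, SE 0.20, adjusted p = 0.490). In the main fit no gene reached that p among 9 of AMPK, 15 of autophagosome fusion and 15 other factors. In the spike-in fit the fusion genes Plekhm1 (−0.45), Rubcn (−0.37) and Vamp8 (−0.55) and, among the other factors, Nrbf2 (−0.45) were lower at that p. In these 3 lists the largest differences were Stk11 at 1.26 (SE 0.83), the fusion protein gene Vamp8 at −0.55 (SE 0.32) and Trp53inp1 at −0.90 (SE 0.57).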

How the data were processed

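RNA of 4 G0 and 4 G1 samples was read on Affymetrix mouse arrays. The deposited values are log2 expression values, for which MAS5 is the tool in the submitters' processing notes. The values show that each probe set was centred on its median over the 8 arrays. The log base was taken as 2 from the range of −12.4 to 5.58, and how the centring was done is not given in the sources used. No level filter was possible, and the number of arrays limits precision.

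The 64 control probe sets were left out, which leaves 45037. Of these, 34945 had 1 gene symbol, 932 several and 9160 none, and 34741 symbols were checked through the Entrez identifier against GRCm38.p6 names. A gene was shown by 1 probe set (suffix order _at, _a_at, _s_at, _x_at, then lowest number). G1 minus G0 was tested two-sided with limma 3.58.1 in R 4.3.3 (eBayes with trend, 5 residual degrees of freedom), with the labelled batch as covariate and Benjamini-Hochberg adjustment over 45037 probe sets at 0.05. The labels' second-batch name for G1 is written unlike the others and was read as G1 replicate 4. The fit was tested on simulated data.

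Members and lists were chosen with earlier results of these data known. Every array's value was given for the 8 genes of smallest p, the gene of largest difference in each role group, the ATG8 family, Ulk1, Ulk2, Becn1 and Sqstm1. Alternatives were other batch terms, fewer arrays, no trend, array scaling, floor ties and other probe sets per gene. By their titled numbers the arrays paired weakly for replicates 1 and 2 and not for 3 and 4. The correlations of their deviations from the group means were 0.07, 0.11, −0.14 and −0.14 for replicates 1 to 4. Those of replicates 1 and 2 were the highest that these arrays had with any array of the other group. The arrays without spike-ins, G0 replicate 3 and G1 replicate 4, correlated at 0.31, and G0 replicate 4 with G1 replicate 3 at 0.10. These too were the highest for each array, and a pairing with G0 replicates 3 and 4 crossed was not fitted. Whether titles of G0 replicates 3 and 4 were exchanged cannot be told from the labels.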

Additional observations from a re-analysis of the deposited data

Results flagged for a closer look

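In 2 of 34 groups of 4 arrays (17 genes in G0 and G1) a single array stood far from the other 3 by Dixon's 95% criterion, and chance alone gives about 1 in 20. Gabarap on G1 replicate 4 read 0.233, above the −0.46 to −0.40 of the other G1 arrays. Map1lc3b on G0 replicate 3 read 1.49 on its shown probe set, above the −0.03 to 0.13 of the other G0 arrays. Both are the arrays on which the poly-A spike-ins were missing.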

How the results depend on the processing

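The count of autophagy probe sets past the threshold was 0 in both directions in limma with no batch covariate, the replicate block, the spike-in batch, the arrays with spike-ins only, labelling batch 1 only, each array left out, no trend, arrays shifted to a median of 0, tied lowest values left out and updated symbols. The number lower at an unadjusted p under 0.05 ran from 2 (without G0 replicate 1) to 15 (spike-in batch), with 6 in the main fit and 8 with the replicate block. The block rests on the titled numbers, by which replicates 3 and 4 did not pair, and no block on other pairs was run. The median difference of the 43 genes stayed negative. With single arrays left out it ran from −0.46 to −0.21, the latter without G0 replicate 3. The −0.46 is the value of labelling batch 1. With a replicate 4 left out, the labelled batch term takes up the other replicate 4, so both are lost. The median was −0.29 with arrays shifted, −0.27 for averaged probe sets and −0.27 for the quietest. The count of separated probe sets lower in G1 moved from 8 to 19 on the 6 arrays with spike-ins, where 3 against 3 separate more easily. Of 17 genes with every array given, 13 kept their direction under every setting run. Becn1 turned to −0.31 in labelling batch 1, −0.18 with the mean of probe sets and −0.12 with the quietest. Ulk1 turned to −0.062 with spike-in arrays only, −0.71 in labelling batch 1 and −0.070 with the quietest, Ulk2 to 0.077 in labelling batch 1, and Gabarapl2 to −0.11 with the mean. With single arrays left out, the values ran from −0.31 to 0.90 for Becn1, −0.71 to 0.53 for Ulk1, −0.28 to 0.13 for Ulk2 and −0.11 to 0.11 for Gabarapl2. The −0.31 of Becn1 and the −0.71 of Ulk1 are again the values of labelling batch 1, without replicate 4 of both groups. None of these passed, and the cause was not tested.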
